A study of Mus musculus with 16 samples.

Results

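The genes described here are 32 genes of the synaptic vesicle release machinery, chosen by symbol from the 46403 gene symbols of the deposited tables. They comprise 11 genes of the SNARE complex and its regulators, 8 of the presynaptic active zone, 11 that encode proteins of the vesicle itself and 2 of vesicle recycling. RNA was sequenced from the CA1 subfield of the hippocampus of Fmr1-KO and WT (C57BL/6) mice, in 8 libraries of each genotype. FMRP, the product of Fmr1, binds mRNAs in neurons, and the comparison asks how the CA1 transcriptome differs in its absence. All mice of both genotypes had served as yoked controls in active place avoidance. The labels give neither age nor sex, nor whether the genotypes were littermates, and the knockout allele is not described further. Each library carries a label of its own, made of a number and a letter, but 6 numbers occur in 2 libraries of 1 genotype, which leaves 5 numbers in Fmr1-KO and 5 in WT. What the number marks, an animal, a cage or a litter, is not given. The tests below treat the libraries as separate, so where libraries that share a number are not independent their p-values are too small, and the edgeR tests, ratios and correlations were also run over the 5 and 5 numbers.

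At a presynaptic terminal, vesicles filled with transmitter dock at the active zone, where RIM, Munc13, Bassoon and Piccolo proteins organise and prime them. Membrane fusion is driven by a SNARE complex of a vesicle protein (synaptobrevin, encoded by Vamp genes) with syntaxin and SNAP-25 on the plasma membrane. Synaptotagmins sense calcium, complexins hold and assist the complex, and NSF with its SNAP adaptors takes it apart afterwards. Dynamin and synaptojanin then return membrane to the vesicle pool. Most transcripts of these genes are made and kept in cell bodies, so a CA1 dissection samples neurons whose terminals may lie in other regions, along with local interneurons.

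Snap25, Syn1 and Unc13a each have a pair of transcripts that differ in a short coding stretch. These stretches are shown because the transcript results below name these pairs. Snap25-002 holds only a small share of the Snap25 counts, given below. Snap25 has a pair of alternative versions of its exon 5, of 118 bases each, which lie 196 bases apart on the plus strand of chromosome 2 (GRCm38). The version in Snap25-002 (chr2:136769743-136769860) is the upstream one, used in SNAP-25a, and that in Snap25-001 (chr2:136770057-136770174) is the downstream one, used in SNAP-25b, the form that prevails in the adult brain. Capitals mark the 31 bases that differ between them, which leaves 73.7% identical.
Snap25-001 exon 5: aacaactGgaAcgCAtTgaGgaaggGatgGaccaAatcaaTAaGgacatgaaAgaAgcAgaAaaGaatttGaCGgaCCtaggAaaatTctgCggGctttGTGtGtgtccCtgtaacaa
Snap25-002 exon 5: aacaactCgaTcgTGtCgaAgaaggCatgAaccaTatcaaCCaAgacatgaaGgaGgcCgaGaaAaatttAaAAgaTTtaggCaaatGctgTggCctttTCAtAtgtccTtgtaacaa
Syn1-201 holds 38 coding bases at its last exon (chrX:20861572-20861609, minus strand) that Syn1-001 lacks, and Unc13a-002 holds a 57-base coding exon (chr8:71633439-71633495, minus strand) that Unc13a-001 lacks. No letters are capitalised in these because there is no counterpart to compare.
Syn1-201 segment: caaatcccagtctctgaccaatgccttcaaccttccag
Unc13a-002 exon: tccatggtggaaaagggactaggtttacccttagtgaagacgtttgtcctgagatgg

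Libraries held 1480966 to 2979481 estimated counts in Fmr1-KO and 515103 to 3275003 in WT. WT replicates 3 and 6 were the shallowest (878484 and 515103), with 80.67% and 58.38% of counts in protein-coding transcripts, so results were also computed without them. Fmr1 itself averaged 22.2 ± 7.08 CPM (normalised counts scaled to a common library size) in Fmr1-KO libraries, against 58.1 ± 19.4 CPM in WT libraries (SD, n = 8 each), with a log2 fold change of −1.41 (edgeR quasi-likelihood test, adjusted p = 0.0112), and the groups did not overlap. Of the 8 markers of CA1 pyramidal cells, 7 had counts in every library, while Dcn had a median of 0 CPM over Fmr1-KO libraries and 0.187 CPM over WT ones, and the 8 summed to between 2713 and 2850 CPM in the Fmr1-KO libraries, against 2458 to 3013 CPM in the WT ones. The 6 markers of dentate granule cells summed to 138 to 244 CPM in Fmr1-KO libraries and 148 to 232 CPM in WT libraries, nearly all of it from Lct (means of 162 CPM in the Fmr1-KO libraries and 157 CPM in the WT ones), and 3 of the 6 had too few counts to test. In bulk tissue, fewer cells of a type and less RNA per cell cannot be told apart.

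No member differed between the genotypes past the threshold of an adjusted p of 0.05. Of the 32 members, 31 had enough counts to be tested, and the one left out was Slc17a6. Of these, 0 passed in edgeR, where 0.0174% of 11515 genes did (2 genes, both lower in Fmr1-KO). At an unadjusted p under 0.05 there were 2 higher and 1 lower member, against 3.61% and 4.28% of all genes. The DESeq2 Wald test called 0 members as well (0.0227% of 26471 genes), with 5 higher and 1 lower at an unadjusted p under 0.05 (1.93% and 3.37% of the 26471). Those 26471 genes were not filtered by count beforehand and include many of low count. Their shares are therefore not like those over the 11515 genes of edgeR and limma-voom. The limma-voom fit with quality weights called 0 (0.0608%), with 7 higher and 1 lower (6.3% and 6.29%). With counts summed over libraries that share a label number, 5 against 5, edgeR called 0 members (0.0165%), with 2 higher and 1 lower at an unadjusted p under 0.05 (6.93% of genes in either direction). The members' median log2 fold change was 0.06, against −0.01 over all genes tested, with 21 higher and 10 lower. The interval of the difference set a limit on its size: for 26 of 31 members the 95% interval lay within a 1.5-fold change either way, and for 29 within 2-fold.

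**Figure D1:**
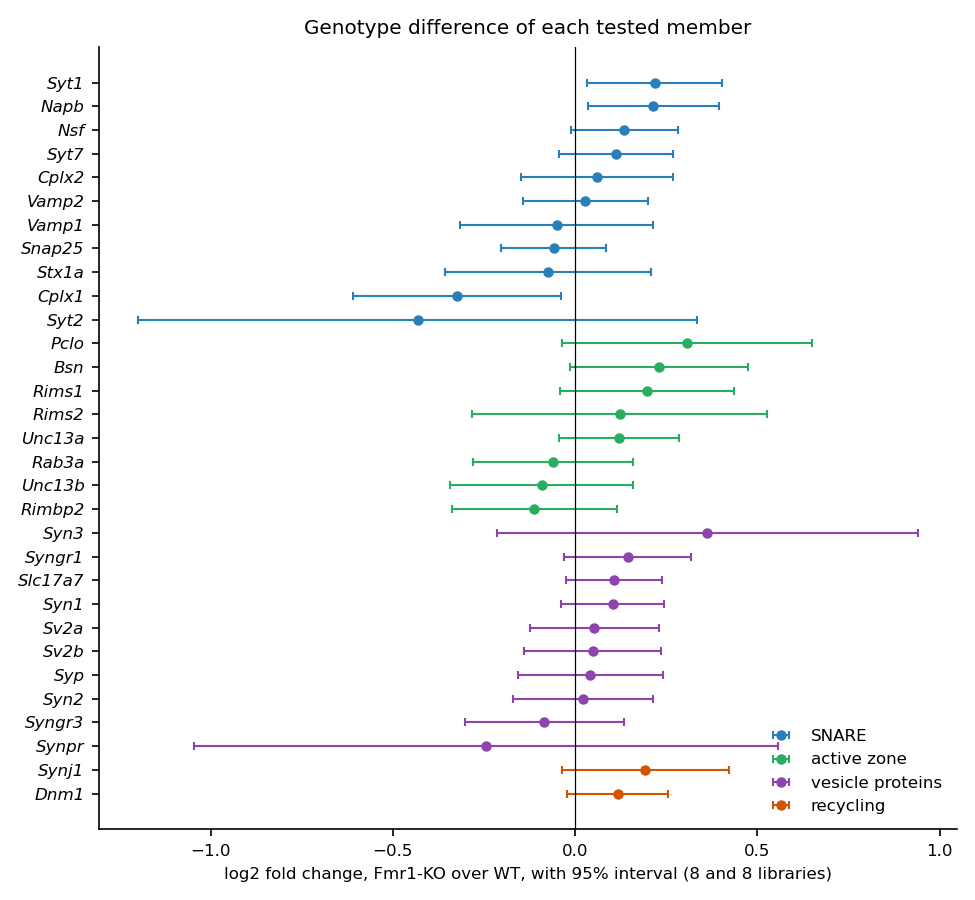
Log2 fold change of each of the 31 tested members (points), Fmr1-KO over WT, with its 95% interval (bars), coloured by role, from 8 and 8 libraries. Most intervals are narrow and span 0; the exceptions are Napb and Syt1 above it and Cplx1 below it, and the widest belong to Syt2, Synpr and Syn3, the members of low count.

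The SNARE group held the 3 members with the smallest p. Napb encodes beta-SNAP, the adaptor with which NSF disassembles SNARE complexes. Its level was 429, 478 and 568 CPM (lowest, median and highest) in Fmr1-KO and 322, 425 and 487 CPM in WT libraries. All 8 Fmr1-KO libraries lay above the WT median, although the groups overlapped. The log2 fold change was 0.21 ± 0.09 (SE; edgeR adjusted p = 0.591). Syt1, the fast calcium sensor for release, stood at 1149, 1369 and 1532 CPM in Fmr1-KO libraries and 871, 1193 and 1324 CPM in WT libraries. Here 7 of 8 Fmr1-KO libraries exceeded the WT median, and the log2 fold change was 0.22 ± 0.09 (edgeR adjusted p = 0.597). Cplx1, which encodes the complexin of many fast-releasing terminals, stood at 139, 161 and 259 CPM in Fmr1-KO libraries and 167, 208 and 324 CPM in WT libraries, and only 2 of 8 Fmr1-KO libraries exceeded the WT median. Its log2 fold change was −0.32 ± 0.14 (edgeR adjusted p = 0.617). Without WT replicates 3 and 6, 0 members passed the adjusted threshold (0.0169% of all genes) and none reached an unadjusted p under 0.05 (0 members, 7.32% of genes). The log2 fold changes were then 0.15 for Napb, 0.15 for Syt1 and −0.23 for Cplx1. The letter of the label is B or D, with no meaning given, and each genotype has 4 libraries of each letter, with WT replicates 3 and 6 both under B. Within letter B the estimates were 0.31 for Napb, 0.41 for Syt1 and −0.50 for Cplx1, and within letter D they were 0.14, 0.04 and −0.14. These splits were made after seeing the data, and the difference between letters was not tested.

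The other SNARE genes differed less. Nsf, the ATPase of disassembly, had a median of 856 CPM in Fmr1-KO libraries and 783 CPM in WT libraries, with all 8 Fmr1-KO libraries above the WT median (log2 fold change 0.14, edgeR adjusted p = 0.657). Snap25, the plasma-membrane SNARE, had medians of 832 CPM in Fmr1-KO libraries and 846 CPM in WT libraries, and its 95% interval ran from −0.20 to 0.09. Vamp2, the main vesicle SNARE of forebrain neurons, was at 796 CPM in Fmr1-KO libraries and 788 CPM in WT libraries (interval −0.14 to 0.20). Stx1a, the syntaxin, gave −0.07, Vamp1 −0.05, Cplx2 0.06 and Syt7, a slower calcium sensor, 0.11 on the log2 scale. Syt2 was uncertain at 4 to 153 counts per library: 2.64, 19.1 and 44.4 CPM in Fmr1-KO libraries and 12.04, 19.02 and 44.3 CPM in WT libraries, with an interval of −1.20 to 0.33.

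Among the active zone genes, 5 of 8 were higher in Fmr1-KO and 3 lower, with a median of 0.12, and 0 passed an unadjusted p under 0.05. The 2 giant scaffold genes had the largest differences. Pclo, encoding Piccolo, stood at 349, 705 and 845 CPM in Fmr1-KO libraries and 318, 566 and 655 CPM in WT libraries, with broad overlap, and a log2 fold change of 0.31 ± 0.17 (edgeR adjusted p = 0.665). Bsn, encoding Bassoon, stood at 482, 718 and 908 CPM in Fmr1-KO libraries and 480, 619 and 749 CPM in WT libraries (log2 fold change 0.23 ± 0.12, edgeR adjusted p = 0.651). Rims1, a RIM scaffold, gave 0.20 and Unc13a, the main Munc13 priming factor of forebrain excitatory terminals, 0.12, while Rims2 gave 0.12. Rab3a, the vesicle GTPase, gave −0.06, Unc13b −0.09 and Rimbp2, a linker of RIM to calcium channels, −0.11.

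**Figure D2:**
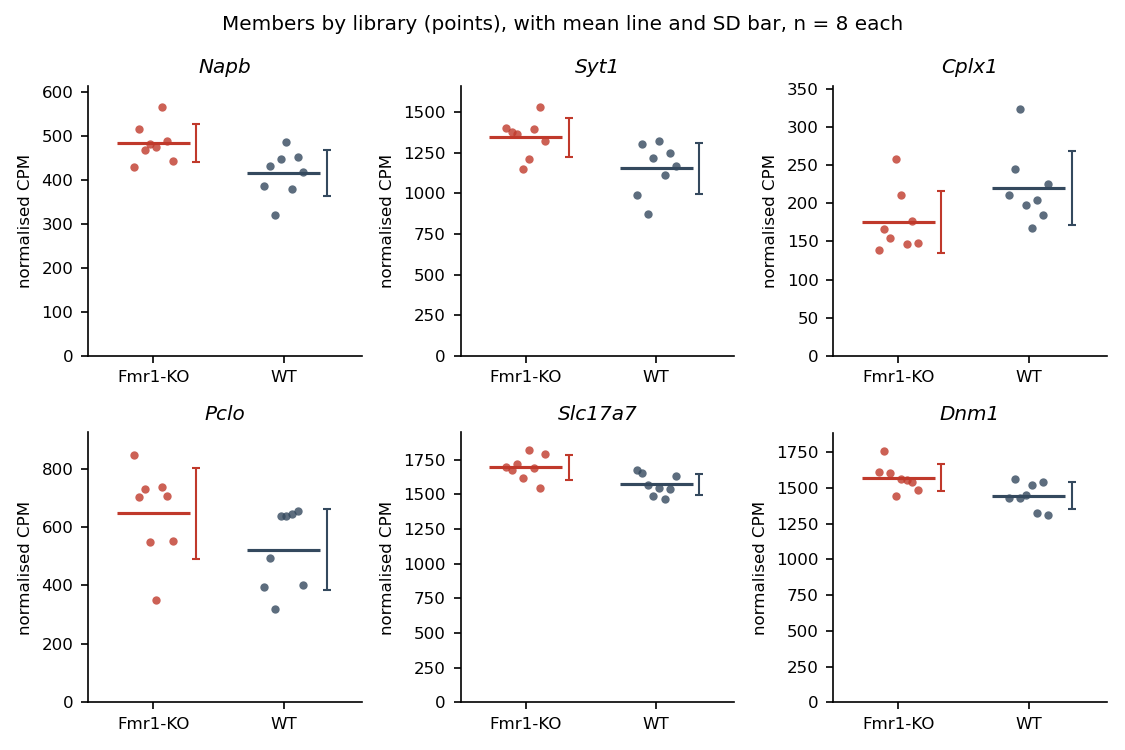
Normalised CPM of 6 members in each library (points; Fmr1-KO left, WT right), with the group mean as a line and the SD as a bar, n = 8 each. Napb and Syt1 sit higher and Cplx1 lower in Fmr1-KO with overlap, and Slc17a7 and Dnm1 vary least of the 6.

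Vesicle protein genes were 8 higher and 2 lower in Fmr1-KO, with a median of 0.05 and 0 at an unadjusted p under 0.05. Slc17a7, the vesicular glutamate transporter VGLUT1, stood at 1545, 1690 and 1817 CPM in Fmr1-KO libraries and 1468, 1559 and 1674 CPM in WT libraries, and 7 of 8 Fmr1-KO libraries exceeded the WT median (log2 fold change 0.11 ± 0.06, edgeR adjusted p = 0.681). Syngr1, a tetraspan vesicle protein, gave a log2 fold change of 0.14 (edgeR adjusted p = 0.675). Syn1, a synapsin that tethers vesicles in the reserve pool, gave 0.10 (edgeR adjusted p = 0.726). Syp, synaptophysin, averaged 999.7 ± 68.4 CPM in Fmr1-KO libraries and 969.6 ± 163 CPM in WT libraries (SD, n = 8 each). Syn2, Sv2a and Sv2b gave 0.02, 0.05 and 0.05, and Syngr3 −0.08. Syn3 had the largest positive estimate of all members, 0.36, but its interval ran from −0.22 to 0.94. Synpr, synaptoporin, was at 4.46, 6.60 and 15.8 CPM in Fmr1-KO libraries and 1.87, 9.41 and 19.2 CPM in WT libraries. Slc17a6, the VGLUT2 gene of subcortical neurons, reached at most 36 counts in any library and was not tested: it stood at 1.08, 2.39 and 3.35 CPM in Fmr1-KO libraries and 0, 2.999 and 10.4 CPM in WT libraries. Both recycling genes had positive estimates, neither past the threshold. Dnm1, neuronal dynamin, stood at 1444, 1558 and 1758 CPM in Fmr1-KO libraries and 1309, 1442 and 1559 CPM in WT libraries (log2 fold change 0.12, edgeR adjusted p = 0.672), with all 8 Fmr1-KO libraries above the WT median. Synj1, which encodes the phosphoinositide phosphatase synaptojanin, stood at 453, 618 and 692 CPM in Fmr1-KO libraries and 339, 557 and 609 CPM in WT libraries (log2 fold change 0.19, edgeR adjusted p = 0.672).

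Counted by library, 12 members had at least 7 of 8 Fmr1-KO libraries above the WT median, where 12.8% of all genes tested did, and 0 had at least 7 of 8 below it (10.9%). The groups did not overlap in 0 members (0.0434% of all genes). Members together took 1.64 ± 0.0318% of counts in Fmr1-KO and 1.48 ± 0.237% in WT (SD, n = 8 each). Without WT replicates 3 and 6 the WT share was 1.59%.

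Members differed far more from each other than between genotypes. On the per-length scale of TPM, a relative abundance corrected for transcript length, over all 16 libraries, the highest medians belonged to Slc17a7 (1051), Syp (951) and Dnm1 (947), followed by Snap25 (757), Vamp2 (723) and Syt1 (593). The lowest were Rims2 (12.9), Syt2 (8.41), Synpr (4.58) and Slc17a6 (1.01). Neighbours often did not differ beyond their spread: Slc17a7 exceeded Syp in 10 of 16 libraries, and Syp exceeded Dnm1 in 5. Syn1 exceeded Unc13a, and Sv2b exceeded Rimbp2, in all 16. The level of Syp rests in part on short transcripts of 433 and 430 bases, which hold 2.81% and 0.703% of its counts in Fmr1-KO but far more of its TPM. WT replicate 6, the shallowest library, had low TPM for nearly all members, and the fits on TPM shifted the median of all genes by 0.55 on the log2(TPM + 1) scale.

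**Figure D3:**
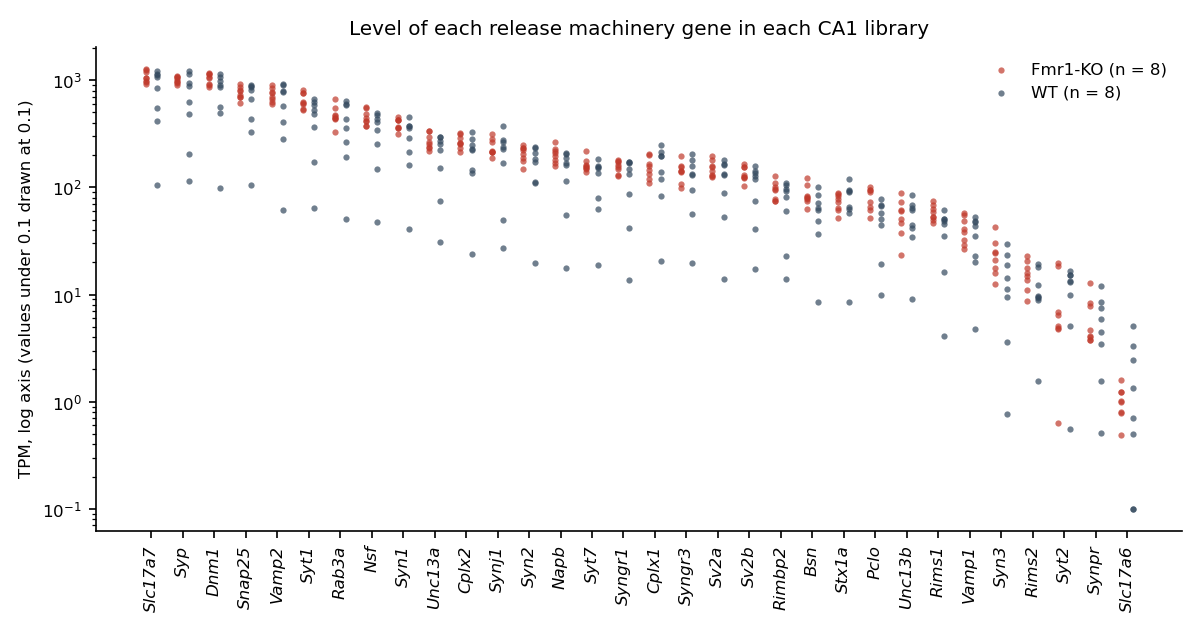
TPM (log axis) of each member in each of the 16 libraries (Fmr1-KO left of WT for each gene), ordered by the median over all libraries. The order runs from Slc17a7 at 1051 TPM to Slc17a6 at 1.01 TPM, and the lowest WT points mostly belong to WT replicate 6, the shallowest library.

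Ratios between related genes need no scaling between libraries, and 12 pairs were compared. Where the genes of a pair differ in length, as Cplx2 (4928 bases) and Cplx1 (2189 bases) do, the length index described below may enter a ratio. Its part in the ratios was not tested. None of the 12 differed past an adjusted p of 0.05 (exact permutation test, 8 against 8, two-sided). The smallest raw values were for Syt1 over Syt2, with a mean log2 ratio of 6.76 ± 1.40 in Fmr1-KO and 5.41 ± 0.87 in WT (exact permutation p = 0.0275, adjusted p = 0.166), Cplx2 over Cplx1, with 0.82 ± 0.40 in Fmr1-KO and 0.41 ± 0.28 in WT (exact permutation p = 0.0362, adjusted p = 0.166), and Unc13a over Unc13b, with 2.38 ± 0.53 in Fmr1-KO and 1.88 ± 0.42 in WT (exact permutation p = 0.0476, adjusted p = 0.166). In the last pair all 8 Fmr1-KO libraries exceeded the WT median. Without WT replicates 3 and 6 the difference of that pair was 0.35, against 0.50 with them, and 6 of 8 Fmr1-KO libraries exceeded the WT median (exact permutation p = 0.165, adjusted p = 0.496). Which pair had the smallest p depended on the scale. With 1 TPM added in place of 0.1 it was Slc17a7 over Slc17a6, with 9.08 ± 0.30 in Fmr1-KO and 8.22 ± 0.77 in WT (exact permutation p = 0.00528, adjusted p = 0.0587). All 8 Fmr1-KO libraries then exceeded the WT median, as they also did without WT replicates 3 and 6 on the first scale. Slc17a6 had a median of only 1.01 TPM and a WT low of 0. The added 1 TPM is thus about its level, and this ratio is not free of scaling between libraries. With 0.1 TPM added the pair gave an exact permutation p of 0.424 (adjusted p = 0.5). On estimated counts the difference of Syt1 over Syt2 was 0.75, against 1.36 on TPM (exact permutation p = 0.115, adjusted p = 0.345). Averaged over label numbers, 5 against 5, the smallest p was that of Syngr1 over Syngr3, with 0.24 ± 0.32 in Fmr1-KO and −0.14 ± 0.07 in WT (exact permutation p = 0.00794, adjusted p = 0.0952). The genotypes did not overlap in that pair, with a lowest ratio of 0.9925 in Fmr1-KO and a highest of 0.9519 in WT. Its p is the smallest that 5 against 5 can give. A single pair at that p could not pass among 12, however large its difference. That none of the 12 passed there therefore says little about this pair. Syt1 exceeded Syt2, and Vamp2 exceeded Vamp1, in 16 of 16 libraries, while Bsn and Pclo had nearly equal TPM (1.17 in Fmr1-KO and 1.23 in WT, as median ratios).

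**Figure D4:**
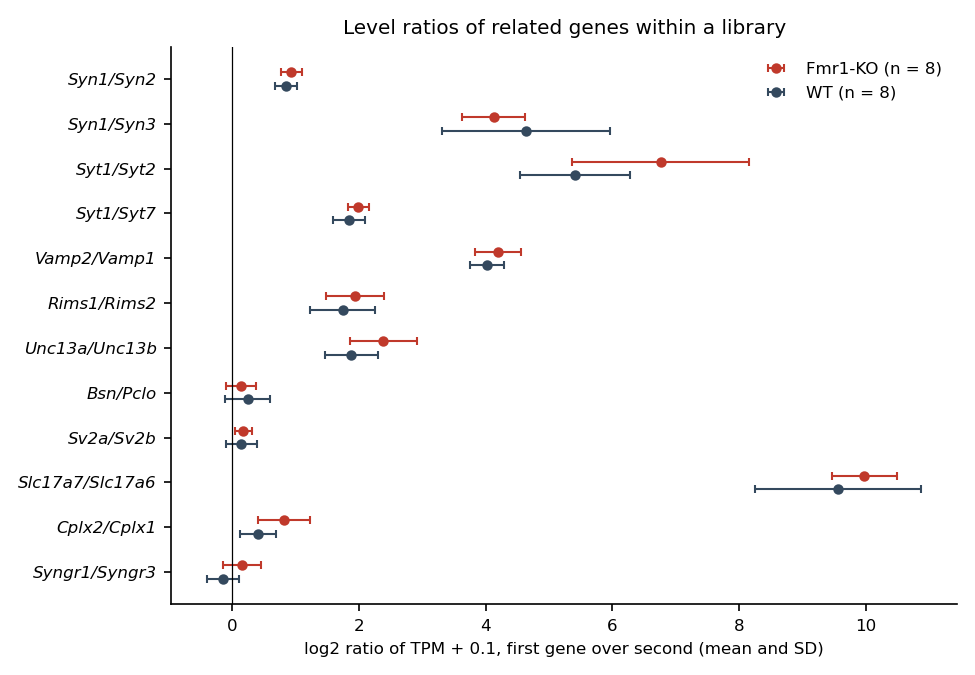
Log2 ratio of TPM + 0.1 for 12 pairs of related members (mean and SD over 8 Fmr1-KO and 8 WT libraries). The SD bars of Fmr1-KO and WT overlap in every pair, and the pairs span from about equal levels (Bsn and Pclo, Sv2a and Sv2b) to Slc17a7 far above Slc17a6.

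Transcript by transcript, 79 transcripts of the 31 members were tested, and 0 passed (edgeR, 0.00596% of 16772 transcripts), with 2 higher and 2 lower at an unadjusted p under 0.05 (1.85% and 2.06% of all transcripts). Unc13a-002, which carries the 57-base exon shown above, stood at 247, 355 and 395 CPM in Fmr1-KO libraries and 194, 256 and 319 CPM in WT libraries, a log2 fold change of 0.38 ± 0.12 (edgeR adjusted p = 1.0), while Unc13a-001 gave 0.01. The other 3 were Syt1-006 (0.21), Rab3a-004 (−0.40) and Cplx1-001 (−0.32). Transcript use within a gene was compared in 20 members, of which 0 passed (Simes test of edgeR, 0.0577% of 3467 genes) and 0 had an unadjusted p under 0.05 (0.923%). The F test of the same fit, added after the data were seen, called 0 members too (0.0577%), again with 0 at an unadjusted p under 0.05 (3.32%). Sensitivity to changes of transcript use was low at this noise, so the lack of calls says little about their absence. Snap25-001 held 98.6% and Snap25-002 1.18% of Snap25 counts in Fmr1-KO, against 97.7% and 1.94% in WT. Since Snap25-002 is also the shorter (1014 against 2116 bases), that split does not rest on exon 5 alone. Syn1-001 and Syn1-201 were of similar size, 52.2% and 47.8% in Fmr1-KO and 53.3% and 46.7% in WT.

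Libraries differed in how long genes fared against short ones, a property noticed after the data were seen. A length index was formed over genes outside the member list, as the log2 difference between 1149 long genes (at least 6287 bases) and 1149 short ones (at most 1266 bases). It was below −0.4 in 4 libraries, Fmr1-KO replicate 5 and WT replicates 1, 2 and 8, and from −0.14 to 0.35 in the other 12. Its mean was 0.08 ± 0.40 in Fmr1-KO and −0.15 ± 0.38 in WT (two-sided exact permutation p = 0.278). Rab3a stood at 371 to 418 CPM in those 4 and at 239 to 323 CPM in the other 12, and Syp at 1087 to 1142 CPM against 672 to 1084 CPM. These were the only 2 of 31 tested members whose ranges did not overlap. The share over all genes was not computed, and the 4 libraries were picked by an index of gene length. The count therefore shows nothing particular to the members. Mean transcript length was 1387 bases for Rab3a and 2536 for Syp, against 15317 for Bsn and 15956 for Pclo. By its making the index sets long genes against short ones. With the index as a covariate, the log2 fold change of Pclo was 0.10, of Bsn 0.09 and of Synj1 0.11, and 0 members passed (0.0261% of all genes). Without the 4 libraries 0 members passed (0.00868%), and the same genes gave 0.27, 0.19 and 0.22. Not every member moved as far. With the covariate Napb gave 0.194, Syt1 0.176, Cplx1 −0.255 and Slc17a7 0.136. Without it these were 0.215, 0.218, −0.325 and 0.108, and without the 4 libraries 0.226, 0.258, −0.316 and 0.159. The part of the index in these differences was not tested.

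**Figure D5:**
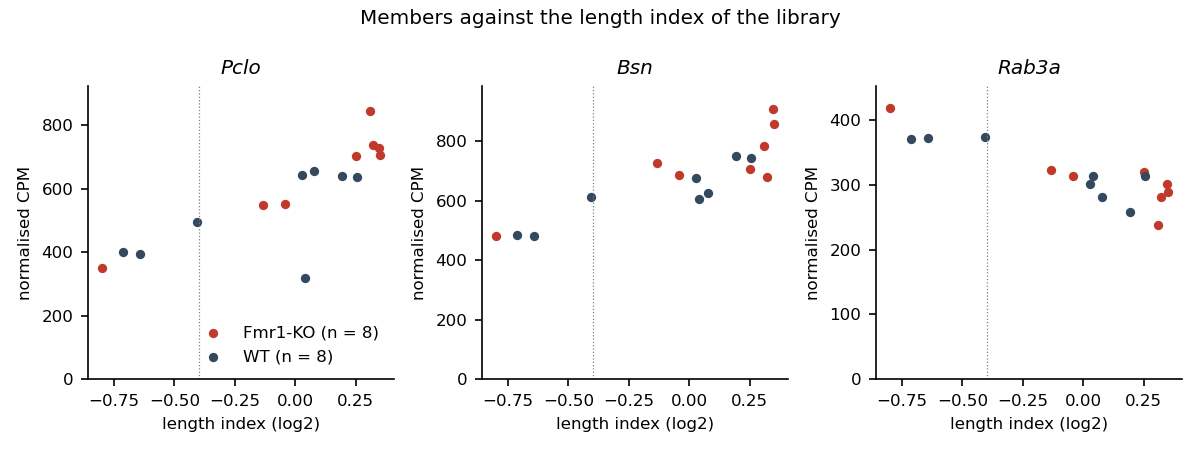
Normalised CPM of Pclo, Bsn and Rab3a against the length index of each library (red Fmr1-KO, dark slate WT; dotted line at −0.4). The 4 libraries left of the line have lower Bsn and higher Rab3a than nearly all others, and 3 of them are WT.

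Of 91 other genes of the same pathways, 83 were tested and 0 passed (edgeR, 0.0174% of all genes), with a median of 0.03. At an unadjusted p under 0.05 there were 4 higher and 1 lower of the 83, against 3.61% and 4.28% of all genes. The 4 were the active zone scaffolds Erc2 (log2 fold change 0.31, edgeR adjusted p = 0.572) and Erc1 (0.33, adjusted p = 0.624), Rab3gap2, a regulator of Rab3 (0.29, adjusted p = 0.581), and the vesicular transporter Slc6a17 (0.21, adjusted p = 0.622). The 1 was Syt12, a synaptotagmin (−0.32, adjusted p = 0.617). Snap91 and Amph, which take part in endocytosis, gave 0.14 and 0.16.

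Most cell type markers that were tested had lower values in Fmr1-KO libraries, and none passed the threshold. This held for CA1 pyramidal markers too, 5 of 7 lower, and for 4 of 4 CA3 pyramidal and 2 of 3 dentate granule markers. These counts are not set against the share of all genes that were lower. All 7 oligodendrocyte, 6 microglial and 6 endothelial markers had lower values in Fmr1-KO, with medians of −0.37, −0.34 and −0.79, as did 7 of 9 interneuron and 5 of 6 astrocyte markers. Part of this rested on WT replicates 3 and 6. Without them the medians were −0.38 for oligodendrocyte, −0.20 for microglial and −0.26 for endothelial markers, with 7 of 7, 6 of 6 and 5 of 6 lower, and Pecam1 averaged 16.5 CPM in Fmr1-KO libraries and 14.5 CPM in the remaining WT libraries. Of the astrocyte markers 4 of 6 were then lower, with a median of −0.08, and of the interneuron markers 5 of 9. For CA1 pyramidal, CA3 pyramidal and dentate granule markers it was 4 of 7, 4 of 4 and 1 of 3. The astrocyte sum was 451 to 586 CPM in Fmr1-KO libraries, against 418 to 1610 CPM in WT libraries and 418 to 660 CPM in the remaining WT libraries. The oligodendrocyte sum was 227 to 447 CPM in Fmr1-KO libraries and 249 to 669 CPM in WT libraries. Endothelial markers summed to 56.4 to 114 CPM in Fmr1-KO libraries and 69.9 to 307 CPM in WT libraries, and microglial ones to 139 to 235 CPM in Fmr1-KO libraries and 172 to 436 CPM in WT libraries. Their part in the member values was not tested. Syt2 and Vamp1 are known from fast-spiking interneurons, and 4 relations to markers were computed. Syt2 and Pvalb gave Pearson's r = 0.57 and Spearman's rho = 0.50 over 16 libraries (permutation p = 0.0193 and 0.0518, adjusted 0.0588 and 0.207), and r = 0.74 without the 2 libraries farthest in Pvalb. Over the 12 libraries of higher length index it was 0.61. Synpr and Prox1, both known from dentate granule cells, gave r = −0.21 and rho = −0.04 (permutation p = 0.435 and 0.88, adjusted 0.435 and 0.88), and r = 0.09 without the 2 farthest. Vamp1 with Pvalb gave r = 0.33 and rho = 0.22 (permutation p = 0.209 and 0.408, adjusted 0.279 and 0.544), and r = 0.27 without the 2 farthest. Vamp1 with Syt2 gave r = 0.54 and rho = 0.35 (permutation p = 0.0294 and 0.187, adjusted 0.0588 and 0.374), and r = 0.24 without the 2 farthest, so that relation rests on those libraries.

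The members lie on 18 chromosomes, 2 of them, Syn1 and Syp, on the X. RefSeq (GRCm38.p6) gives promoter windows of 300 bases for 26 of the 32 members, with a median GC content of 62.2%, against 52.7% over 32851 promoters. 10 members overlap another protein-coding gene. Timp1 lies within Syn1, Timp4 within Syn2, Timp3 within Syn3, and Tapbpl and Cd27 within Vamp1, each on the opposite strand. These overlaps are of whole gene spans, and overlap of exons was not checked. The counts are per transcript, so strand matters only where exons overlap. The sources used here do not state whether the libraries kept strand, and whether any member value is affected was not tested.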

How the data were processed

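RNA from CA1 was sequenced in 16 libraries. Tools listed in the submitters' processing notes are kallisto, cutadapt, FastQC and DESeq2. Their versions and order, the genome build and the transcript index were not stated in the labels or file headers. The deposited estimated counts and TPM, per the file headers, are kallisto's per-transcript values. TPM holds no depth. Here the authors' estimated counts were summed by gene symbol and rounded. Genes and transcripts were tested with edgeR 4.0.16 in R 4.3.3 (quasi-likelihood, TMM, filterByExpr with a minimum count of 10, Benjamini-Hochberg, threshold 0.05), beside limma 3.58.1 and DESeq2 1.42.0. Ratios used exact permutation tests on log2(TPM + 0.1) and correlations 100000 resamples of log2(CPM + 1), with SciPy 1.17.1. CPM is TMM-normalised. Positions and exon sequences are from GENCODE M21 (GRCm38), promoters from RefSeq. The scripts were tested on simulated data. There the Simes test of transcript use missed most changes at the observed noise, and the F test made more false calls than its nominal share. The limits these 2 tests had to meet were relaxed after their first results and then dropped, in favour of a run with less noise, which the Simes test passed. Depth limits precision most for Syt2, Synpr, Syn3 and Slc17a6. Replicate numbers pair nothing. Libraries that share a label number were also summed or averaged. Members and lists were chosen with earlier results of these data known. Named are, per role, up to 4 members of smallest p and those of highest and lowest TPM, pairs by ratio, and up to 3 other genes per role. The length index, its bound, the F test, the splits by letter and the sums by label number were chosen after seeing the data.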

Additional observations from a re-analysis of the deposited data

Results flagged for a closer look

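In groups of 8 libraries, 72 were searched for a value far from the rest, and 5 were found, where chance gives about 1 in 20. Syt2 stood at 44.4 CPM in Fmr1-KO replicate 4, with the next library at 22.3. Rab3a stood at 418 CPM in Fmr1-KO replicate 5, the library with the lowest length index, with the next at 323. Syn2 was low in Fmr1-KO replicate 8, at 311 CPM with the next at 391, and high in WT replicate 3, at 514 CPM with the next at 408. SNARE genes took 0.345% of counts in WT replicate 6, the shallowest library, with the next at 0.515%. The low share was not particular to SNARE genes. Active zone (0.192%), vesicle protein (0.287%) and recycling genes (0.122%) also had their lowest share there. In that library 58.38% of counts were in protein-coding transcripts and 31.59% in its top 10 genes.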

How the results depend on the processing

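No member and no other release gene passed the adjusted threshold under any of the alternatives run. Over all genes the count of 2 became 5 with no filter, 6 with the DESeq2 Wald test, 7 with limma-voom quality weights, 1 without the 4 libraries of low length index, and 0 for letter B libraries alone and on log2(TPM + 1) and log2(TPM + 0.1), and it ranged from 2 to 3 with single libraries left out. The members' median ranged from 0.05 to 0.09 with single libraries left out, and was 0.68 and 0.69 on the TPM scales, where all genes had medians of 0.55 and 0.62. Of 576 values of 18 members, picked per role by smallest p or by highest or lowest TPM, 568 kept their direction and 8 turned. Many of these alternatives leave out a single library only. Rab3a gave 0.013 in letter D libraries, 0.026 on log2(TPM + 1) relative to all genes, 0.043 with the length index and 0.03 without the 4 libraries. Rims2 gave −0.20 in letter D libraries and −0.003 with the index, Synj1 −0.021 on log2(TPM + 0.1) relative to all genes and Syt2 0.13 in letter B libraries. Members outside that count turned as well. Without WT replicates 3 and 6 Syp gave −0.06 and Vamp2 −0.025, against 0.042 and 0.028 with them. Stx1a gave 0.117 in letter B libraries and Sv2a −0.052 in letter D libraries, against −0.075 and 0.053 over all libraries. Without WT replicates 3 and 6 the genotype differences of Rims1 over Rims2 and of Sv2a over Sv2b were −0.018 and −0.01, and Synpr with Prox1 gave r = 0.089. On log2(TPM + 1) that r was 0.11, and Syt2 with Pvalb gave 0.66, Vamp1 with Pvalb 0.77 and Syt2 with Vamp1 0.70, all 3 past the adjusted threshold, but none of them without WT replicates 3 and 6 on that scale (permutation p adjusted 0.0744, 0.0744 and 0.0564). On log2(CPM + 1), without the 2 farthest libraries, Syt2 with Pvalb gave 0.74, past it too, and Synpr with Prox1 0.089. Averaged over label numbers on log2(CPM + 1), Synpr with Prox1 gave r = 0.52, and no relation passed the adjusted threshold. Averaged in the same way on log2(TPM + 1), Syt2 with Pvalb gave 0.76 and Vamp1 with Pvalb 0.85, both past it (permutation p adjusted 0.0172 and 0.0107). The causes were not tested. The letter splits, the length index, the F test and the sums by label number were chosen after seeing the data. No paired analysis was possible because replicates were numbered in accession order and no label number occurs in both genotypes. Within a genotype, libraries that share a number had a consensus correlation of −0.0122 (limma), and as a random effect the number gave 3 genes called and 0 members. Depth limits Syt2, Synpr, Syn3 and Slc17a6 most.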
